A study of Mus musculus with 5 samples.

Results

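The 36 genes described here encode the enzymes of glycolysis, the transporters that bring glucose into the cell and carry lactate out, the switches that set how much sugar flows down the pathway, and the hypoxia-inducible factor (HIF) system with some of its target genes. They were chosen by name, from their known roles, but with earlier results of these data known. All 36 were found among the 55573 genes of the deposited count table. RNA-seq was used to measure poly(A) RNA from Neuro-2A (N2A) cells, a commercially obtained mouse neuroblastoma line. Cells received 60 pmol of siRNA by transient transfection, either a commercial negative control (siCtl, 2 libraries, replicates 1 and 3) or an siRNA against Upf1 (siUpf1, 3 libraries, replicates 1, 2 and 3). The knockdown was therefore transient and partial, the control is 1 non-targeting sequence, and all libraries came from a single cell line grown in the same medium. Nothing in the labels says that the libraries of a group came from separate cultures, so the p-values measure the spread between these libraries, which may be technical. In a bulk sample, fewer cells of a type and less RNA per cell cannot be told apart.

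UPF1 is an RNA helicase that nonsense-mediated mRNA decay (NMD) requires. Glycolysis splits glucose into pyruvate in a chain of enzyme steps, and lactate dehydrogenase converts pyruvate to lactate, which regenerates the NAD+ that the chain consumes. HIF is a transcription factor made of an oxygen-labile alpha subunit and the stable partner ARNT. When oxygen is plentiful, prolyl hydroxylases mark the alpha subunit, VHL binds it, and it is degraded. When oxygen is scarce the alpha subunit accumulates, and HIF binds the core sequence ACGTG or GCGTG near the genes of most glycolytic enzymes and of many other targets. Tumour cells often run glycolysis to lactate even in ample oxygen. Oxygen, protein and metabolites were not measured in these libraries.

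The libraries held between 20402205 and 27717594 reads assigned to genes. Upf1, the siRNA target, had 5217 and 5243 normalized read counts in the siCtl libraries and 2403, 2496 and 2449 in the siUpf1 libraries, which is 46.8% of the siCtl mean (log2 fold change -1.10, SE 0.051, DESeq2 adjusted p = 7.09e-101). Normalized read counts are the deposited counts divided by DESeq2's size factor for the library. Of 12 sympathetic neuroblastoma markers, 9 were expressed, among them Hand2, Gata3 and Dbh, whereas the neurofilament genes Nefl and Nefm were near 0. Of the 9, 5 were called higher in siUpf1 (55.6%, against 22.0% of all genes tested) and 1 lower (11.1%, against 22.9%). The summed counts of 5 markers of other cells (Ptprc, Pecam1, Col1a1, Gfap and Alb) were 273.6 and 285.9 in siCtl and between 175.2 and 191.7 in siUpf1. Most of that sum was Pecam1, which was lower in siUpf1 (58.3% of siCtl), while Ptprc and Alb were at most 4.72 and 1.78 in any library.

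Knockdown of Upf1 was accompanied by changes in both directions among these genes. DESeq2 called the lactate transporter genes Slc16a1 and Slc16a3 in opposite directions, but no listed enzyme family held calls in both directions. Eno2 rose where Eno1 fell, and its rise was called by edgeR (edgeR adjusted p = 0.0148) and not by DESeq2 (DESeq2 adjusted p = 0.0592). Lactate dehydrogenase A (Ldha) fell to 52.7% of its siCtl level and the lactate transporter Slc16a1 to 62.3%, whereas the glucose transporter Slc2a3 rose to 151%, the lactate transporter Slc16a3 to 136% and the HIF subunit Hif1a to 173%. Pdk1, a kinase that turns off pyruvate dehydrogenase, rose to 264%. Of the 36 members, 33 had enough reads to be tested, 9 were called higher and 10 lower at a DESeq2 adjusted p-value under 0.05, and 14 were not called. The background is high in this comparison. Of all 15191 genes tested, 44.9% were called, 22.0% higher and 22.9% lower, against 57.6% of the tested members (27.3% higher and 30.3% lower). In 28 of the 33 members (84.8%) the siCtl and siUpf1 libraries did not overlap, which held for 69.4% of all genes tested. The median log2 fold change was 0.03 over the 33 members and -0.002 over all genes. Among called genes the median absolute log2 fold change was 0.40 for the 19 members and 0.43 for all 6822 genes, and only Pdk1 reached an absolute value of 1. The members as a group thus had changes of the size usual for called genes in these libraries, with no common direction. The genes compared were not matched for read level, on which a call also depends.

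**Figure D1:**
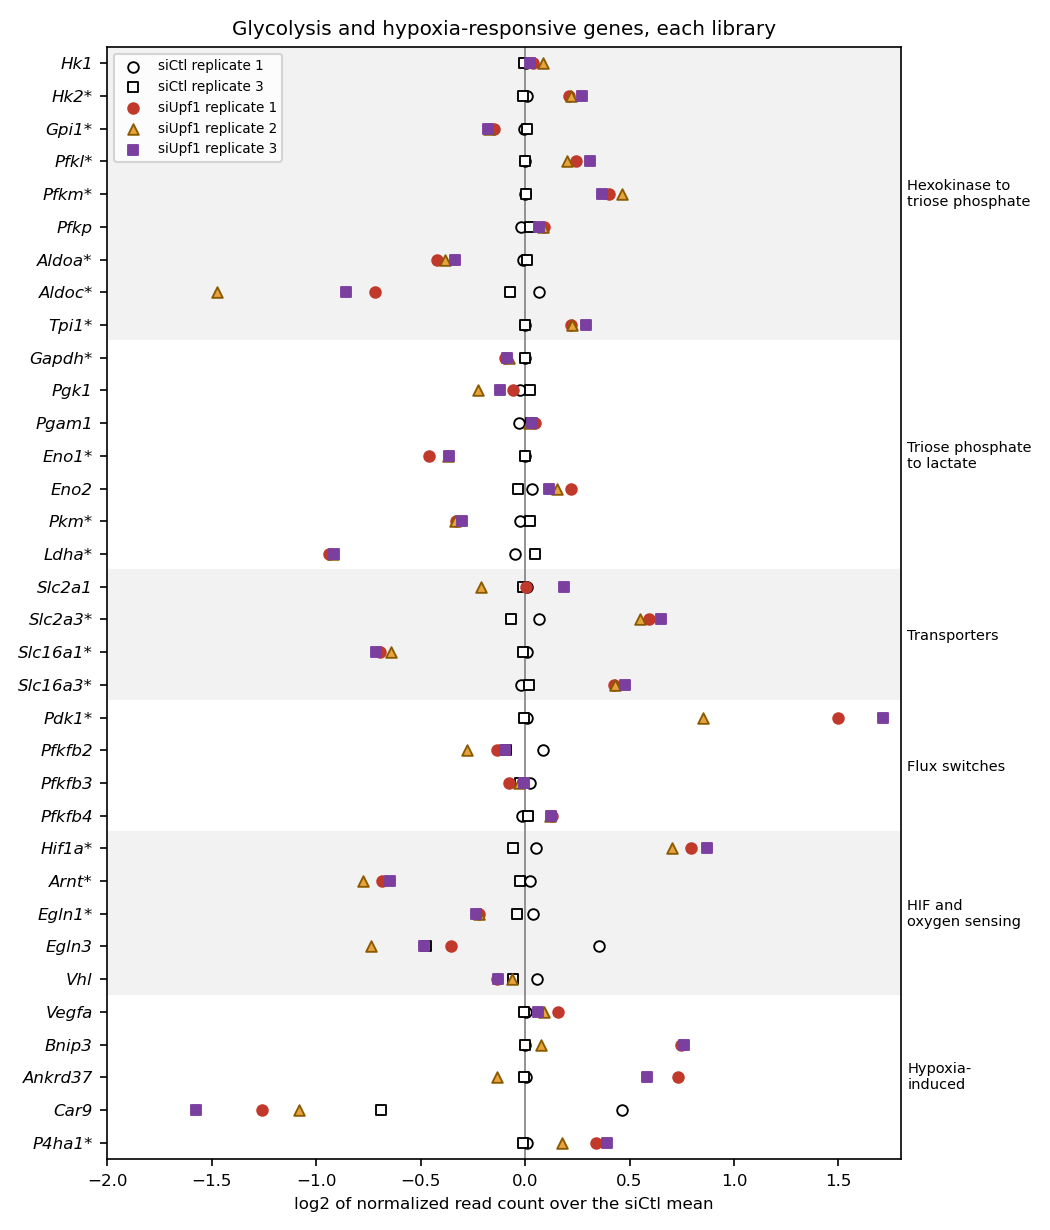
Each row is 1 member gene, grouped by role, and each point is 1 library, placed at the log2 of its normalized read count over the mean of the 2 siCtl libraries (open symbols, siCtl; filled symbols, siUpf1). An asterisk marks a DESeq2 adjusted p-value under 0.05. The 3 siUpf1 points of Ldha lie together between -0.94 and -0.91, those of Pdk1 spread from 0.85 to 1.71, and Ldhb and Epas1 are not drawn because siCtl had no read.

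Promoter sequence is shown for members on each side of the result, because HIF binds its core near many genes of these kinds. Members were not chosen by this motif, and whether HIF acted on them in these cells was not tested. RefSeq promoter windows (GRCm38.p6, 250 bases before to 50 after each annotated start) existed for 34 of the 36 members, all but Slc2a3 and Epas1. Searched on both strands, ACGTG was present in at least 1 window of 23 of those 34 members (67.6%) and of 21.8% of all 27025 genes with a window, coding or not. Because genes with several windows have more chances, the same was counted by window, and 54.0% of the 50 member windows and 19.6% of all 32851 windows held it. GCGTG was found in 22 of the 34 members (64.7%) and in 35.2% of all genes. The palindrome CACGTG is read on each strand and counts as 2 overlapping matches of ACGTG. By call, ACGTG was present in 5 of 8 members called higher, 7 of 10 called lower and 10 of 14 not called. These are matches of letters, not measured binding.

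The 250 bases before 1 annotated start of Ldha, the enzyme gene with the lowest adjusted p-value, held 5 matches in 3 places, more than any other member window. They lie at chr7:46845554-46845803 on the plus strand, before the first exon of the main Ldha transcript in GENCODE M21 and inside an intron of a longer one, and capitals mark ACGTG on either strand (read as CACGT on the printed strand when it is on the other).
Ldha: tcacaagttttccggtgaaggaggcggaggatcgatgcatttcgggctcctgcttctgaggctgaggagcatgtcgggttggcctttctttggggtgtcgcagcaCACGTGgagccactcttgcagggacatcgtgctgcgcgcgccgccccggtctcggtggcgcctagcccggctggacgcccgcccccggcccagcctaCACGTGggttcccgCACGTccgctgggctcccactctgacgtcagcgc

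Stretches of 30 bases around 1 match are given for other members, read 5′ to 3′ on the strand of the gene, with capitals marking only the match whose stretch is shown, so that a further or overlapping match in the same stretch stays in lower case. All start before the transcript start that RefSeq annotates for the window, and that of P4ha1 runs just past it. By the gene bounds of GENCODE M21, the stretches of Aldoa, Pkm, Slc16a3, Hif1a and Ankrd37 nevertheless lie inside the gene, and that of Egln1 crosses its start. Among members that were lower in siUpf1, the matches lie at chr7:126799363-126799392 (minus strand) for the aldolase gene Aldoa, chr9:59657140-59657169 (plus) for the pyruvate kinase gene Pkm, chr3:104638452-104638481 (plus) for Slc16a1 and chr8:124949305-124949334 (minus) for the prolyl hydroxylase gene Egln1.
Aldoa: tgtggctcgagtCACGTcctagcggggcgg
Pkm: ctccgatccggtCACGTccgcgccgcagca
Slc16a1: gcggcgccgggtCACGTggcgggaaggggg
Egln1: gggccgtggtgtACGTGcagcgcgcgcgga

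Among members that were higher, the matches lie at chr6:82774489-82774518 (minus) for the hexokinase gene Hk2, chr11:120949028-120949057 (plus) for Slc16a3, chr12:73907721-73907750 (plus) for Hif1a itself and chr10:59323268-59323297 (plus) for the collagen prolyl hydroxylase gene P4ha1.
Hk2: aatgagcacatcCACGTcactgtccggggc
Slc16a3: caggcagcggtgACGTGcgcgggggacgtg
Hif1a: acacagacaagcACGTGagcggggcagctc
P4ha1: tgtgacagagcgCACGTagcgagggctgcg

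Bnip3 and Ankrd37, which DESeq2 called only where siUpf1 replicate 2 was out of the contrast (edgeR called Bnip3 with all libraries), carry matches at chr7:138909596-138909625 (minus) and chr8:46000071-46000100 (minus).
Bnip3: cgcacgcgccgcACGTGccacacgctcccc
Ankrd37: cccagcagtACGTGcctagctcggctcgca

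The enzymes from hexokinase to triose phosphate isomerase, which phosphorylate glucose and split it into triose phosphates, moved in both directions. Of 9 genes, all of them tested, 4 were called higher (Hk2, Pfkl, Pfkm and Tpi1) and 3 lower (Gpi1, Aldoa and Aldoc). The siUpf1 libraries stood apart from siCtl in all 9. Over all genes tested, 22.0% were called higher and 22.9% lower, and the libraries stood apart in 69.4%. Phosphofructokinase commits the sugar to glycolysis, and the gene for its muscle-type subunit, Pfkm, had 2453 and 2461 normalized read counts in siCtl and 3245, 3389 and 3170 in siUpf1. Every siUpf1 library was above both siCtl libraries (log2 fold change 0.41, SE 0.056, DESeq2 adjusted p = 2.15e-12). Pfkl, the liver-type subunit, rose less, from 4889 and 4884 to 5779, 5622 and 6071 (0.25, adjusted p = 1.24e-06). Platelet-type Pfkp, the third subunit gene, had a mean of 9286 ± 197 (SD, n = 2) in siCtl and 9818 ± 79.0 (SD, n = 3) in siUpf1 and was not called (0.08, SE 0.040, DESeq2 adjusted p = 0.0955).

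Hexokinase traps glucose in the cell as glucose 6-phosphate. Hk2, the form typical of growing and tumour cells, had 4011 and 3969 normalized read counts in siCtl and 4620, 4646 and 4815 in siUpf1, a rise of 0.23 on the log2 scale (SE 0.049, DESeq2 adjusted p = 6.58e-06). Hk1, the housekeeping form, was 103% of siCtl (log2 fold change 0.05, SE 0.041, DESeq2 adjusted p = 0.381), a difference that was not called. Gpi1, which turns glucose 6-phosphate into fructose 6-phosphate, fell from 13694 and 13823 to 12404, 12193 and 12171 (log2 fold change -0.17, SE 0.038, DESeq2 adjusted p = 4.85e-05). Small as it was, the fall of Gpi1 was larger than the spread between libraries, and its groups did not overlap.

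Aldolase cleaves fructose 1,6-bisphosphate into a pair of triose phosphates. Aldoa, the main form here, had 33702 and 34111 normalized read counts in siCtl and 25325, 25940 and 26829 in siUpf1, which is 76.8% of siCtl (log2 fold change -0.38, SE 0.038, DESeq2 adjusted p = 6.20e-22). Aldoc, the brain-type aldolase, was expressed far less, with 211.7 and 192.5 counts in siCtl and 122.7, 72.8 and 111.4 in siUpf1 (log2 fold change -0.97, SE 0.220, DESeq2 adjusted p = 4.97e-05). Both aldolases were lower in every siUpf1 library, and siUpf1 replicate 2 was the lowest for Aldoc. A second, neighboring row of the table also carries the symbol Aldoa. It had 205.5 and 202.8 counts in siCtl and 121.0, 129.3 and 131.0 in siUpf1 (log2 fold change -0.69, DESeq2 adjusted p = 0.000736), so the rows shared a direction. Tpi1, the isomerase that interconverts the triose phosphates, went the other way, from 9703 and 9714 to 11299, 11335 and 11874 (log2 fold change 0.24, SE 0.042, DESeq2 adjusted p = 2.91e-08).

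From glyceraldehyde 3-phosphate to lactate the calls went in 1 direction. Of the 7 genes tested, 4 were called lower (Gapdh, Eno1, Pkm and Ldha), none was called higher, and Pgk1, Pgam1 and Eno2 were not called. Over all genes tested, 22.9% were called lower and 22.0% higher. The call of Gapdh was not kept by edgeR (edgeR adjusted p = 0.0703). Eno2 alone of the 7 was higher at an unadjusted DESeq2 p-value under 0.05, and also by edgeR's quasi-likelihood test (edgeR adjusted p = 0.0148). Enolase makes phosphoenolpyruvate. Eno1, the widely expressed form, had 23406 and 23414 normalized read counts in siCtl and 17003, 18109 and 18167 in siUpf1 (75.9% of siCtl, log2 fold change -0.40, SE 0.041, DESeq2 adjusted p = 7.89e-21). Eno2, the neuronal form, had 1265 and 1205 in siCtl and 1438, 1374 and 1334 in siUpf1, with no overlap (log2 fold change 0.16, SE 0.074, DESeq2 adjusted p = 0.0592). Pyruvate kinase catalyzes the last step to pyruvate, and Pkm had 34315 and 35495 counts in siCtl and 27743, 27677 and 28358 in siUpf1 (80.0% of siCtl, log2 fold change -0.32, SE 0.036, DESeq2 adjusted p = 1.59e-17). Gene-level counts do not separate the M1 and M2 splice forms of Pkm.

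Ldha (ENSMUSG00000063229.15, chr7:46841475-46855627, plus strand, GRCm38) encodes the subunit of lactate dehydrogenase that favors the formation of lactate. It had 24571 and 26243 normalized read counts in siCtl and 13275, 13438 and 13482 in siUpf1. Ldha fell by 0.92 on the log2 scale (SE 0.041, DESeq2 adjusted p = 1.47e-110), and the 3 siUpf1 libraries were closer to each other than the 2 siCtl libraries were. Ldhb, the other somatic subunit gene, had 0 reads in all 5 libraries, which allows up to 3 counts in each. Ldha therefore supplied 100% of the reads of this pair in both groups.

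Gapdh, Pgk1 and Pgam1 stand between aldolase and enolase and changed little. Gapdh, which is often used as a reference gene, had 14247 and 14251 normalized read counts in siCtl and 13336, 13501 and 13424 in siUpf1, or 94.2% of siCtl. Its DESeq2 adjusted p was 0.0454 (log2 fold change -0.09, SE 0.037), and it was 0.0703 by edgeR and was lost in 10 of the 12 alternatives, so the direction was stable and the call was not. Pgk1 had a mean of 2796 ± 63.0 (SD, n = 2) in siCtl and 2553 ± 148 (SD, n = 3) in siUpf1 (log2 fold change -0.13, SE 0.062, DESeq2 adjusted p = 0.0747). Pgam1 had 2407 ± 63.1 (SD, n = 2) and 2461 ± 23.6 (SD, n = 3), with overlapping libraries (log2 fold change 0.03, SE 0.057, DESeq2 adjusted p = 0.698).

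Many glycolytic genes have near-identical processed copies in the mouse genome, and counting can discard or split their shared reads. Rows named as pseudogenes of a member held at most 13 reads in any library. Eno1b, an intronless gene nearly identical to Eno1, held more, 3336 ± 130 (SD, n = 2) normalized read counts in siCtl and 2630 ± 153 (SD, n = 3) in siUpf1 (log2 fold change -0.34, DESeq2 adjusted p = 1.58e-07). Reads of Eno1 and Eno1b cannot be fully told apart, and the levels of Gapdh, Aldoa, Pgk1 and Ldha carry the same uncertainty. With the reads of these copies added to the members, all 19 calls were kept. For every member but Eno1 this added very few reads or none. Reads that counting had discarded were not recovered, and their part was not tested.

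Summed over the pathway, the share of assigned reads that came from the 17 glycolytic enzyme genes was 0.749% and 0.772% in siCtl and 0.659%, 0.632% and 0.664% in siUpf1. The siUpf1 libraries were all below the siCtl libraries. The sum is carried by the abundant genes Aldoa, Pkm, Ldha and Eno1, all of which fell. Of the 16 tested enzyme genes, 4 were called higher (25.0%, against 22.0% of all genes tested) and 7 lower (43.8%, against 22.9%). For all 36 members the share was 0.894% and 0.916% in siCtl and between 0.790% and 0.836% in siUpf1.

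Levels can be compared between genes only per length, as reads per kilobase of exon scaled to the assigned reads of the library (RPKM). On that scale the siCtl order was Aldoa (462 ± 7.68, SD, n = 2), Ldha (304 ± 16.6), Pkm (277 ± 8.85), Eno1 (172 ± 1.44), Tpi1 (140 ± 1.25) and Gapdh (137 ± 1.14). In siUpf1 it was Aldoa (360 ± 12.6, SD, n = 3), Pkm (225 ± 7.36), Tpi1 (168 ± 6.91), Ldha (163 ± 3.66), Eno1 (133 ± 3.52) and Gapdh (131 ± 2.67). Ldha moved from place 2 to place 4, and in siUpf1 its libraries (159 to 165) overlapped those of Tpi1 (161 to 175). Slc16a1 moved from place 12 to place 19 and Slc2a3 from place 20 to place 15. In siCtl the neighbors in this order that overlapped were Pgk1 with Vegfa, Vegfa with Pgam1, Pfkm with Pfkl, Egln1 with Slc2a3, and Pfkfb4 with Ankrd37. The members spanned more than 3 orders of magnitude on this scale, down to Pdk1 at 0.319 and Car9 at 0.183 in siCtl.

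**Figure D2:**
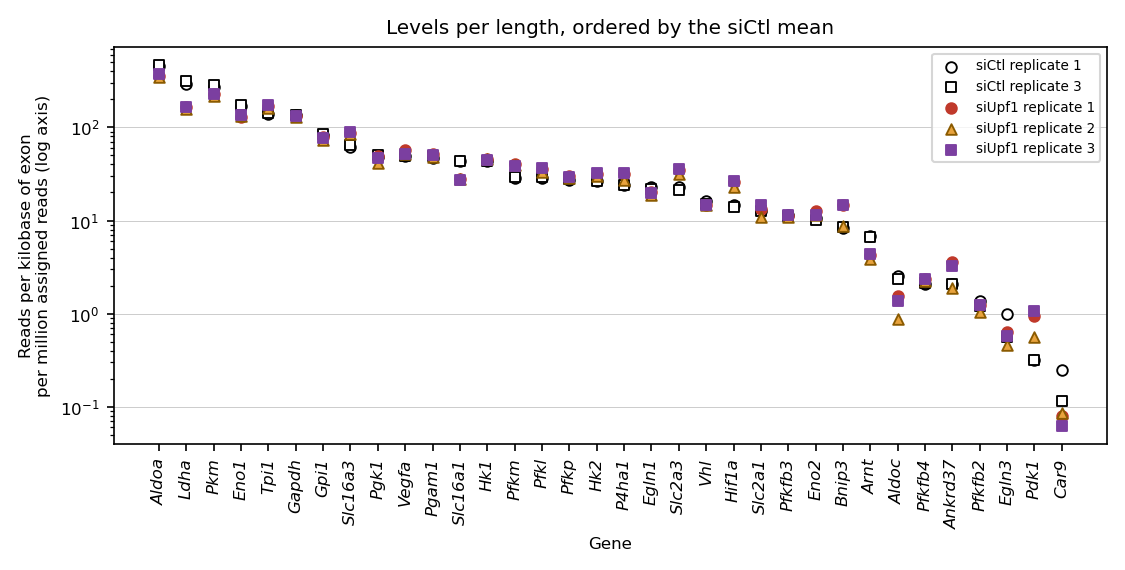
The vertical axis, which is logarithmic, gives the level per length (RPKM), and genes are ordered by their siCtl mean. Each point is 1 library (open, siCtl; filled, siUpf1). Ldha, Slc16a1 and Arnt drop below their siCtl points, Hif1a, Slc2a3 and Pdk1 rise above them, and most others stay near them.

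Glucose enters the cell through GLUT proteins and lactate leaves or enters through monocarboxylate transporters, and each family had members that moved unlike each other. Slc2a3 (GLUT3, a high-affinity glucose transporter typical of neurons) had 4236 and 3860 normalized read counts in siCtl and 6102, 5921 and 6357 in siUpf1 (log2 fold change 0.60, SE 0.054, DESeq2 adjusted p = 4.22e-27). Slc2a1 (GLUT1, the widely expressed glucose transporter and a HIF target) had 1127 and 1112 in siCtl and 1122, 968 and 1275 in siUpf1. Its siUpf1 libraries lay on either side of siCtl, and no change was detected (log2 fold change 0.006, SE 0.098, DESeq2 adjusted p = 0.968). Slc16a3 (MCT4, a lactate exporter of glycolytic cells) had 8365 and 8582 in siCtl and 11381, 11434 and 11812 in siUpf1 (log2 fold change 0.45, SE 0.041, DESeq2 adjusted p = 9.46e-26). Slc16a1 (MCT1, which carries lactate in either direction) had 4919 and 4857 in siCtl and 3018, 3138 and 2980 in siUpf1. It fell by 0.68 on the log2 scale (SE 0.051, DESeq2 adjusted p = 8.01e-40), so the lactate transporters went in opposite directions with no overlap in either. Slc16a1 (ENSMUSG00000032902.1, chr3:104638668-104658462, plus strand, GRCm38) and Slc16a3 (ENSMUSG00000025161.16, chr11:120948480-120960868, plus strand, GRCm38) are on different chromosomes.

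Expressed as shares of the reads per kilobase of the listed members of a family, which cancels library scaling, the composition of several families differed between the groups. The share of Slc16a3 in the lactate transporter pair was 58.6% and 59.5% in siCtl and 75.8%, 75.2% and 76.7% in siUpf1, while the sum of the pair was 106% of siCtl. Slc2a3 made up 64.5% and 62.7% of the glucose transporter pair in siCtl and 72.5%, 74.8% and 70.7% in siUpf1. For Pfkm the mean share was 34.0% ± 0.175 (SD, n = 2) in siCtl and 37.9% ± 1.22 (SD, n = 3) in siUpf1, and for Pfkp it was 32.1% ± 0.446 and 28.4% ± 0.271, although Pfkp itself did not fall. The share of Hk2 against Hk1 was 37.9% ± 0.0655 and 41.0% ± 0.965, and that of Eno2 against Eno1 was 5.69% ± 0.187 and 8.18% ± 0.562. None of these shares overlapped between the groups. In a pair of genes either share fixes the other. The shares of the PFKFB genes, none of which was called, did not overlap either (Pfkfb3, 76.9% ± 0.0573 and 76.2% ± 0.646). Lack of overlap alone is thus weak evidence of a shift in composition. Pfkl, at 33.9% ± 0.272 and 33.8% ± 1.35, did overlap. The sum of a family was 120% of siCtl for phosphofructokinase, 133% for the glucose transporter pair, 76.6% for aldolase, 77.9% for enolase and 52.7% for lactate dehydrogenase. With 2 libraries against 3 an exact permutation test cannot give a p-value under 0.1, and no test was made of the shares.

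**Figure D3:**
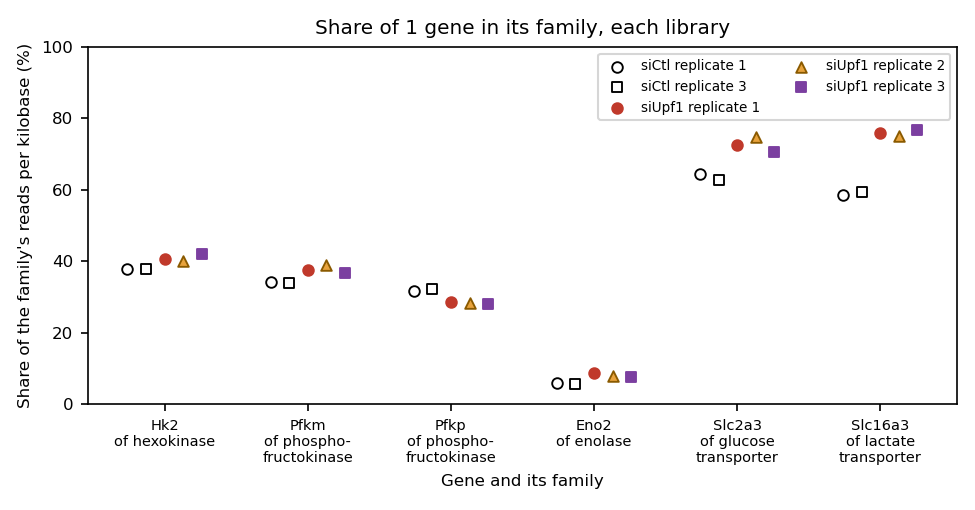
Each group of points shows the share (%) of 1 gene in the summed reads per kilobase of the listed members of its family, 1 point per library (open, siCtl; filled, siUpf1). The share of Slc16a3 is between 58.6% and 59.5% in siCtl and between 75.2% and 76.7% in siUpf1, and Pfkp is the only gene drawn whose share is lower in siUpf1.

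Among the switches of flux, Pdk1 alone was called, and it had the largest log2 fold change of the tested members. PDK1 phosphorylates and turns off pyruvate dehydrogenase, which keeps pyruvate out of mitochondrial oxidation. Pdk1 (ENSMUSG00000006494.11, chr2:71873224-71903858, plus strand, GRCm38) had 62.9 and 62.3 normalized read counts in siCtl and 177, 113 and 205 in siUpf1 (log2 fold change 1.41, SE 0.261, DESeq2 adjusted p = 4.29e-07). Each siUpf1 library exceeded siCtl, but replicate 2 was well below the others. The PFKFB enzymes make or remove fructose 2,6-bisphosphate, the activator of phosphofructokinase. Pfkfb3, the most abundant of the 3 genes per length, had 2186 and 2119 counts in siCtl and 2040, 2109 and 2145 in siUpf1, and Pfkfb2 and Pfkfb4 were at 89.1% and 109% of siCtl. None of the 3 was called by DESeq2 (adjusted p = 0.668, 0.449 and 0.527 for Pfkfb3, Pfkfb2 and Pfkfb4), and none had an unadjusted DESeq2 p under 0.05 or passed edgeR's test.

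The genes of the HIF dimer moved in opposite directions. Hif1a (ENSMUSG00000021109.13, chr12:73901375-73947530, plus strand, GRCm38), the oxygen-labile subunit, had 2202 and 2040 normalized read counts in siCtl and 3681, 3450 and 3879 in siUpf1 (log2 fold change 0.79, SE 0.063, DESeq2 adjusted p = 3.00e-34). Arnt (ENSMUSG00000015522.18, chr3:95434388-95497240, plus strand, GRCm38), its constitutive partner, had 1370 and 1323 in siCtl and 836, 786 and 861 in siUpf1 (log2 fold change -0.70, SE 0.081, DESeq2 adjusted p = 6.20e-17). Neither gene had overlapping groups. Per length, Hif1a made up 68.1% ± 0.638 (SD, n = 2) of the summed reads of the pair in siCtl and 85.8% ± 0.171 (SD, n = 3) in siUpf1. Epas1, which encodes the alternative alpha subunit HIF-2 alpha, had a single read in 1 siUpf1 library and none elsewhere. The alpha subunit is controlled mainly as a protein, and RNA levels do not show how much of it was present.

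Oxygen sensing genes changed less. Egln1 (PHD2), the main prolyl hydroxylase that marks HIF in oxygen, had 2088 and 1984 normalized read counts in siCtl and 1749, 1747 and 1728 in siUpf1 (log2 fold change -0.23, SE 0.063, DESeq2 adjusted p = 0.0012). Every siUpf1 library was below siCtl, and the call was lost without siCtl replicate 1 (DESeq2 adjusted p = 0.0867). Egln3 (PHD3), itself a HIF target, had 67.1 and 37.7 in siCtl and 40.9, 31.4 and 37.4 in siUpf1, and was not called (log2 fold change -0.51, SE 0.376, DESeq2 adjusted p = 0.286). Its siCtl libraries differed from each other more than the group means did. Vhl, the ubiquitin ligase subunit that binds hydroxylated HIF, was at 92.8% of siCtl (log2 fold change -0.11, SE 0.078, DESeq2 adjusted p = 0.268).

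Of the hypoxia-induced targets 4 were tested, and P4ha1 alone was called by DESeq2. P4HA1 hydroxylates proline in collagen, and its gene had 2529 and 2498 normalized read counts in siCtl and 3181, 2840 and 3296 in siUpf1 (log2 fold change 0.31, SE 0.065, DESeq2 adjusted p = 1.28e-05). Vegfa, the angiogenic growth factor, had 5319 and 5271 in siCtl and 5911, 5632 and 5524 in siUpf1 (log2 fold change 0.10, SE 0.048, DESeq2 adjusted p = 0.0658), and edgeR called it (edgeR adjusted p = 0.0381). All 3 of its siUpf1 libraries were above siCtl by a small margin. Car9, carbonic anhydrase IX, a gene that responds strongly to hypoxia, had between 4 and 14 reads in each library and was not tested.

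Bnip3, a mitophagy receptor, and Ankrd37, a small ankyrin-repeat gene, were split within siUpf1. Bnip3 had 479 and 479 normalized read counts in siCtl and 803, 505 and 811 in siUpf1. Replicates 1 and 3 were far above siCtl, and replicate 2 was close to it. The log2 fold change over all libraries was 0.56 (SE 0.282, DESeq2 adjusted p = 0.0928), and without siUpf1 replicate 2 it was 0.75 (DESeq2 adjusted p = 7.82e-10). edgeR called Bnip3 with all libraries (edgeR adjusted p = 0.0024). Ankrd37 had 81.8 and 81.1 in siCtl and 135, 74.0 and 122 in siUpf1, so that replicate 2 lay below siCtl and the others above (log2 fold change 0.45, SE 0.270, DESeq2 adjusted p = 0.170). Without that library it was 0.66 (DESeq2 adjusted p = 0.0413).

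The same library was low for other members too. This comparison was chosen after the values were seen. siUpf1 replicate 2 stood at 57.6% of the mean of siUpf1 replicates 1 and 3 for Ankrd37, 59.1% for Pdk1, 62.2% for Aldoc, 62.5% for Bnip3 and 80.7% for Slc2a1. Over the 11898 genes with a mean of at least 50 normalized counts, the median of this ratio was 101%, the 5th percentile 85.0% and the 1st percentile 74.1%. Of 34 further hypoxia-induced genes above the same minimum, Selenbp1 (60.4%), Ndrg1 (64.4%) and Gbe1 (70.8%) lay below the 1st percentile, and Adm was at 79.7%. By contrast Ldha was at 100%, Pkm at 98.7% and Egln1 at 100%. Several of the low genes had few reads, with siCtl means of 62.6 normalized counts for Pdk1, 81.4 for Ankrd37 and 97.4 for Gbe1. Bnip3 (479) and Slc2a1 (1120) had more, and Ldha had 25407. The percentiles pool genes of all levels above the minimum, and the part of gene level in these ratios was not tested. Replicate 2 was the lowest of the 3 siUpf1 libraries in 15 of 32 members, in 18 of 34 further hypoxia-induced genes (52.9%) and in 30.3% of all genes. By role of the members, replicate 2 was the lowest in 2 of 9 from hexokinase to triose phosphate isomerase and 3 of 7 from there to lactate. The same held in 2 of 4 transporters, 3 of 4 flux switches, 2 of 4 HIF and oxygen sensing genes and 3 of 4 hypoxia-induced targets. In the remaining lists its share was below that of all genes. It was the lowest in 6 of 27 further glycolysis and pyruvate genes, 2 of 12 genes of the HIF machinery and 1 of 9 pentose phosphate genes. It also had the fewest reads of the 5 libraries, 20402205, and the part of depth in these values was not tested. Upf1 in that library, 2496 counts, was close to the 2403 and 2449 of the others. Without replicate 2, 18 of the 19 member calls were kept (Gapdh was lost), and Bnip3 and Ankrd37 were gained.

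**Figure D4:**
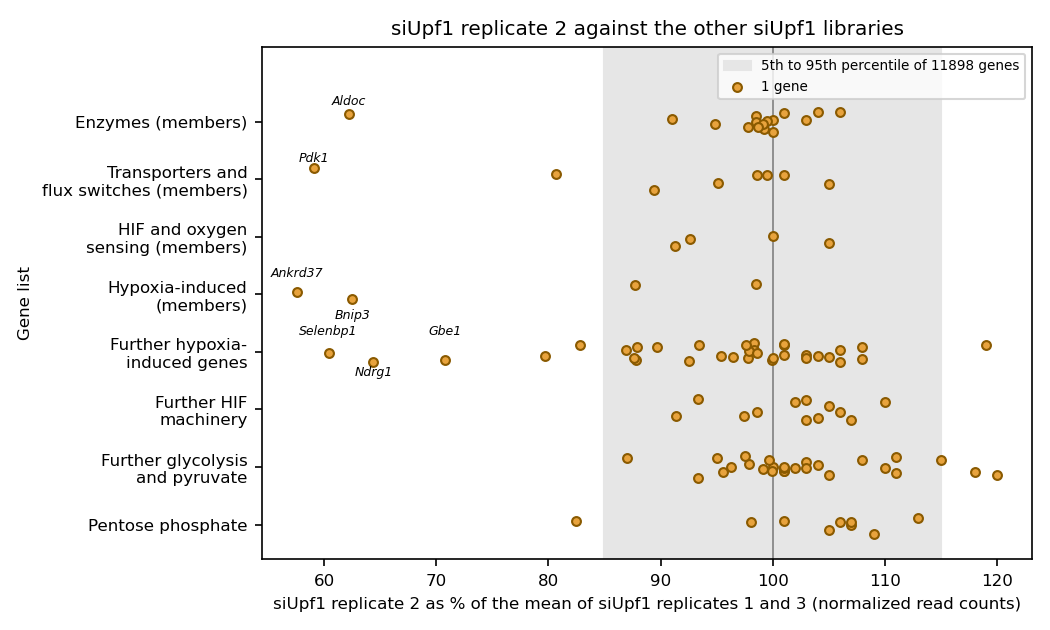
Each point is 1 gene, placed at the normalized read count of siUpf1 replicate 2 as a percentage of the mean of siUpf1 replicates 1 and 3, for genes with a mean of at least 50. The gray band spans the 5th to 95th percentile of 11898 genes (85.0% to 115%), and labeled genes lie below 75%. Ankrd37, Pdk1, Aldoc and Bnip3 stand apart from the other members.

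Other genes of the same pathways were taken from lists of known function, which were chosen with earlier results of these data known. Of 28 tested genes of glycolysis and pyruvate handling outside the members, 7 were called higher and 6 lower, with a median log2 fold change of 0.04. The share called, 46.4%, was near the 44.9% of all genes tested. Pdp1, a phosphatase that turns pyruvate dehydrogenase back on and so opposes Pdk1, had 516 and 474 normalized read counts in siCtl and 996, 946 and 996 in siUpf1 (log2 fold change 0.99, DESeq2 adjusted p = 1.31e-24). Mpc1, a subunit of the carrier that takes pyruvate into mitochondria, rose to 169% of siCtl (0.75, adjusted p = 5.46e-12), and Pgm1, which links glycogen to glycolysis, to 140% (0.49, adjusted p = 7.66e-10). Dlat, the acetyltransferase subunit of pyruvate dehydrogenase, fell from 2961 and 2849 to 1613, 1610 and 1514 (log2 fold change -0.88, DESeq2 adjusted p = 1.20e-43). Gpd1l, a relative of glycerol 3-phosphate dehydrogenase, fell to 50.8% (-0.98, adjusted p = 7.52e-27) and Pfkfb1 to 69.6% (-0.52, adjusted p = 0.00753). Other genes of pyruvate dehydrogenase, named after their values were seen, did not share 1 direction: the second phosphatase gene Pdp2 was called lower (77.2% of siCtl), as was the subunit gene Dld (88.9%), the subunit genes Pdha1 (112%) and Pdhx (115%) were called higher, and Pdhb (107%) and the kinase gene Pdk2 (95.8%) were not called.

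Among 12 tested genes of the wider HIF machinery 4 were called higher and 2 lower, and the median log2 fold change was 0.05. The 6 of 12 called were also near the share of all genes (44.9%). Cited2, which competes with HIF for the coactivators p300 and CBP, rose to 174% of siCtl (log2 fold change 0.80, DESeq2 adjusted p = 7.45e-31). Egln2 (PHD1) rose to 123% (0.30, adjusted p = 5.40e-05), as did Siah1a, a ubiquitin ligase (0.29, adjusted p = 0.0146), and Elob, a subunit of the VHL ligase, to 111% (0.15, adjusted p = 0.0435). Hif1an, the asparaginyl hydroxylase that blocks the HIF activation domain, fell to 82.4% (-0.28, adjusted p = 6.17e-05) and Os9 to 74.7% (-0.42, adjusted p = 7.46e-11).

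Of 39 tested further hypoxia-induced genes, 15 were called higher (38.5%, against 22.0% of all genes) and 8 lower (20.5%, against 22.9%), with a median log2 fold change of 0.06. Tgfb3, a TGF-beta ligand, had 236 and 259 normalized read counts in siCtl and 555, 549 and 538 in siUpf1 (log2 fold change 1.14, DESeq2 adjusted p = 2.41e-19). Kdm4b, a histone demethylase, rose to 160% of siCtl and Fam162a to 140%. Adm, the vasodilator peptide adrenomedullin, rose the most (log2 fold change 1.68, DESeq2 adjusted p = 6.14e-07) from a low level of 31.5 and 28.3 to 91.6, 81.6 and 113, and is named after its values were seen. Falls were of similar size. Ndrg1, a classical hypoxia marker, had 331 and 269 in siCtl and 118, 72.8 and 108 in siUpf1 (log2 fold change -1.57, DESeq2 adjusted p = 1.26e-13) and Bhlhe41 (a transcriptional repressor) fell to 50.6% of siCtl.

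**Figure D5:**
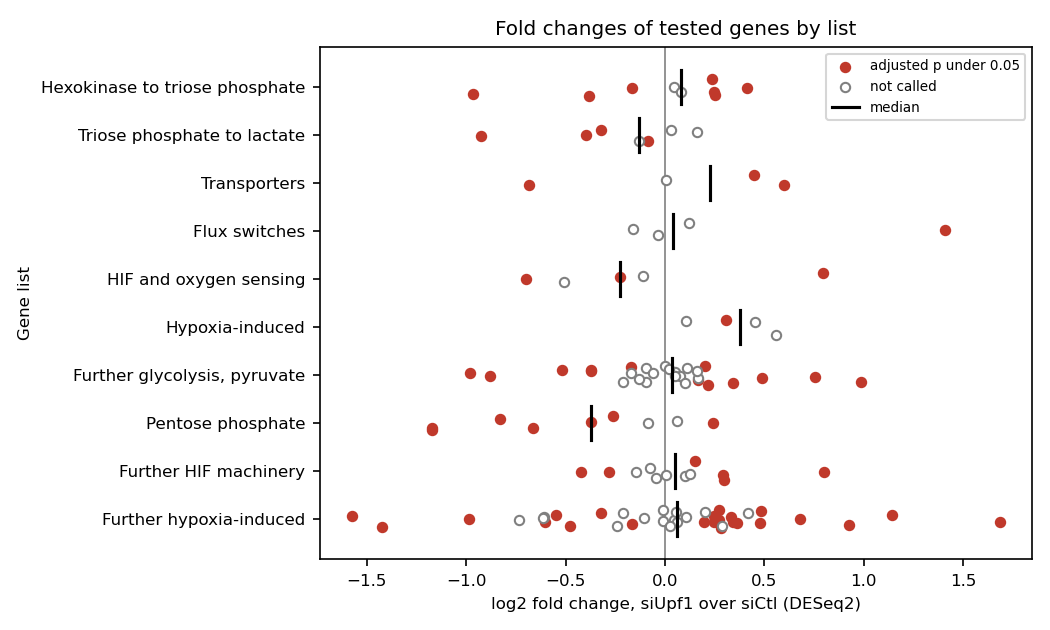
Each point is 1 tested gene, placed at its DESeq2 log2 fold change (siUpf1 over siCtl), with 1 row for each role of the members and each further list; filled points have an adjusted p-value under 0.05 and the black bar is the median of the list. Medians lie between -0.37 for the pentose phosphate genes and 0.38 for the 4 hypoxia-induced members, and called genes occur on both sides of 0 in most lists.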

How the data were processed

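The authors trimmed reads with fastp, mapped them with STAR to GRCm38.p6 and used featureCounts to count them per gene, strand-specifically, over GENCODE (M22 or M25) exons. The deposited values are raw read counts per gene, not normalized and not pooled, for 2 siCtl and 3 siUpf1 libraries grouped by their labels. Here the counts of all genes were fitted with DESeq2 1.42.0 (R 4.3.3) by a Wald test on the group alone, with size factors by median of ratios, independent filtering and Benjamini-Hochberg adjustment, the test of the study's methods. Genes with an adjusted p-value under 0.05 were called. Alternatives were edgeR 4.0.16 (quasi-likelihood), TMM or total-count scaling, a minimum of 10 counts in 2 libraries, no filter, the replicate number as a block, reads of copies added, and each library left out. Scripts were tested on simulated data. Exon lengths came from GENCODE M21 (same build, 99.7% of identifiers matched) and promoters from RefSeq. Intervals and floors cover counting error only. Members and gene lists were chosen with earlier results of these data known. All members and Upf1 were named, and in each further list the 3 called genes highest and the 3 lowest in fold change among those with a mean of at least 100 normalized counts; a few genes that these rules cover are not reported here. Authors' comparison columns were not used.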

Additional observations from a re-analysis of the deposited data

How the results depend on the processing

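Over the 33 tested members and 12 alternatives, 372 of 396 member values kept their direction and their side of the threshold, 13 lost the call, 8 gained it and 3 changed sign, and 24 members did so in no alternative. The sign changes all belonged to Slc2a1, which was not called: -0.003 with TMM, and between -0.094 and 0.098 with single libraries left out. Gapdh lost its call in 10 alternatives. Without siCtl replicate 1 or 3 a single control was assumed to vary like the other libraries. Leaving out libraries gave between 3 and 5 further glycolysis and pyruvate genes called lower, between 0 and 1 pentose phosphate gene called higher and between 2 and 3 genes of HIF machinery called higher. edgeR called 4220 genes higher and 4172 lower. Car9 (4 to 14 reads in a library) and Epas1 (1 read in all) were too low to be tested.

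Libraries with the same replicate number did not deviate in the same direction. Deviations from the group mean correlated at -0.086 for number 1 and -0.075 for number 3. Because the 2 siCtl libraries deviate by equal and opposite amounts, these values cannot settle whether the libraries were paired. Number 2 has no siCtl library, so that the block takes siUpf1 replicate 2 out of the contrast by construction. With the block, 1957 genes were called higher and 1962 lower, 16 of 19 member calls were kept (Gpi1, Gapdh and Egln1 were not) and Bnip3 was gained. In the further lists the block left 4 glycolysis and pyruvate genes higher and 2 lower, 0 pentose phosphate genes higher, 1 gene of HIF machinery higher and 8 hypoxia-induced genes higher.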

Other observations

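The pentose phosphate pathway branches off glycolysis at glucose 6-phosphate and makes NADPH and ribose 5-phosphate. The 9 tested genes listed with it include Prps1 and Prps2, which use its product ribose 5-phosphate. Of the 9, 6 were called lower in siUpf1 (66.7%, against 22.9% of all genes tested) and 1 higher (11.1%, against 22.0%). The median log2 fold change was -0.37, against -0.002 over all genes tested. G6pdx, the NADPH-making entry enzyme, had 4924 and 4880 normalized read counts in siCtl and 2737, 2890 and 2664 in siUpf1 (log2 fold change -0.83, SE 0.053, DESeq2 adjusted p = 2.49e-52). Rpia, which makes ribose 5-phosphate, had 606 and 693 in siCtl and 303, 303 and 260 in siUpf1 (-1.17, SE 0.125, DESeq2 adjusted p = 8.71e-20). Prps2, which turns ribose 5-phosphate into the precursor of nucleotides, had 563 and 573 in siCtl and 269, 220 and 264 in siUpf1 (-1.17, SE 0.129, DESeq2 adjusted p = 2.03e-18). The groups overlapped in none of these 3 genes. Prps1 and Taldo1 (transaldolase) were also called lower, at 77.2% and 83.6% of siCtl. Rpe, an epimerase of the same branch, was called higher at 118% (0.24, DESeq2 adjusted p = 0.0119).

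Hif3a, which encodes a further alpha subunit, was below the level at which DESeq2 assigned an adjusted p-value. It had 12.6 and 15.1 normalized read counts in siCtl and 0.89, 1.26 and 0 in siUpf1. Its values were seen before it was picked, and the rule for named genes does not cover it.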
